A study of Mus musculus with 30 samples.

Results

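The glycolytic enzymes of muscle are described here as 10 genes, *Gpi1*, *Pfkm*, *Aldoa*, *Tpi1*, *Gapdh*, *Pgk1*, *Pgam2*, *Eno3*, *Pkm* and *Ldha*, which were chosen by symbol among the 36103 genes of the count table. Each symbol had 1 row except *Aldoa*, which had 2. The second *Aldoa* gene, ENSMUSG00000114515, reached at most 0.778 CPM in any library, and *Aldoa* below is ENSMUSG00000030695. RNA was sequenced from whole gastrocnemius, diaphragm, heart and liver of male mice of the pure 129Pas background at 5 weeks of age. The *Mtm1*-/y mice carry a constitutive knockout of the X-linked gene for myotubularin, a phosphoinositide phosphatase whose loss causes X-linked myotubular myopathy, and the WT mice were their littermates. There were 4 WT and 4 *Mtm1*-/y libraries of the gastrocnemius and of the heart, 4 and 3 of the diaphragm (*Mtm1*-/y replicates 1, 2 and 4), and 3 and 4 of the liver (WT replicates 1 to 3), each from 1 mouse. Whether libraries of different tissues with the same number came from the same mouse is not given in the sources used here, and the tests between tissues treat all libraries as independent.

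Glycolysis splits glucose into pyruvate in the cytosol and yields ATP without oxygen. The first enzymes invest ATP to make and cleave a sugar bisphosphate, the later ones recover ATP and NADH, and lactate dehydrogenase returns NAD+ by reducing pyruvate. Fast-twitch fibres, which fill most of the mouse gastrocnemius, rely on this pathway for short bursts of contraction, while the heart and the diaphragm burn more fuel in mitochondria. Several steps have isozymes from separate genes. *Pfkm*, *Aldoa*, *Pgam2*, *Eno3* and *Pkm* encode the forms that predominate in skeletal muscle, and *Ldha* the one that predominates in the gastrocnemius. *Gpi1*, *Tpi1*, *Gapdh* and *Pgk1* encode the form used in nearly every cell.

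Libraries held between 24873817 and 44289343 counts. *Mtm1*, the targeted gene, was at 12.9 to 31.1 CPM by library totals in WT and at 3.28 to 6.09 CPM in *Mtm1*-/y libraries, with no overlap. Several libraries stood apart. Summed CPM of 12 hepatocyte markers were 45510, 28470, 561 and 34860 in WT diaphragm 1 to 4 and 3981, 55890 and 1030 in *Mtm1*-/y diaphragm 1, 2 and 4, against 21.2 to 120 in the gastrocnemius. WT heart 4 had the highest sum of 8 cardiomyocyte markers of the 8 heart libraries (80200 CPM, others 52450 to 61630). It also had the lowest sum of slow fibre markers (25710 CPM, others 31910 to 34200) and the highest of fibroblast (4863 CPM) and macrophage markers (390 CPM). *Mtm1*-/y liver 2 had the highest sum of 12 fast fibre markers of the 7 liver libraries (103 CPM, others 7.27 to 35.9). In whole tissue, fewer cells of a type and less RNA per cell cannot be told apart.

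Reads of 50 bases were kept by the authors only where they aligned to 1 place and to 1 gene, so what each enzyme's count can hold depends on how much of its transcript is repeated elsewhere in the genome. Of the 50-base windows of its principal transcript, 84.8% for *Gapdh* and 68.0% for *Pgk1* were found, with up to 1 mismatch, in another annotated gene. The share was 56.3% for *Pkm*, 48.6% for *Gpi1*, 42.8% for *Ldha*, 30.6% for *Aldoa* and 24.0% for *Tpi1*, and 0% for *Pfkm*, *Pgam2* and *Eno3*. With no mismatch allowed it was 82.5% for *Gapdh* and 68.0% for *Pgk1*. On that count it was 34.4% for *Pkm*, 25.3% for *Gpi1*, 17.1% for *Ldha*, 13.9% for *Aldoa* and 7.51% for *Tpi1*. *Gapdh* shared windows with 299 genes, 291 of them annotated as pseudogenes. *Pgk1* shared windows with 5, all of them pseudogenes.

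The difference can be read in the sequence across an exon junction. The 3 lines below show 1 read length, 50 bases of the mm10 transcript, with the last bases of the upstream exon in lower case and the first bases of the downstream exon in capitals. They are shown for the enzymes with the most and the least shared sequence among those that the results turn on.
Gapdh, exons 4 and 5: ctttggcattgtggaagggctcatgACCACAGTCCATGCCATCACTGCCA
Pgk1, exons 5 and 6: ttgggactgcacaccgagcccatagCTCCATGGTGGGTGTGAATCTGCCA
Pgam2, exons 1 and 2: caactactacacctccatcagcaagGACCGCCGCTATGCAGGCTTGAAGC
The *Gapdh* window (chr6:125162843-125162867 and chr6:125162684-125162708, minus strand) recurred within 1 mismatch in 54 other annotated genes. The *Pgk1* window (chrX:106196922-106196946 and chrX:106197842-106197866, plus strand) recurred in 2, *Gm5537* and *Pgk1-rs7*. The *Pgam2* window (chr11:5803275-5803299 and chr11:5803155-5803179, minus strand) recurred in none.

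The deposited levels of *Gapdh* and *Pgk1* were low. Per kilobase of principal transcript, WT gastrocnemius held 22.1 CPM of *Gapdh* and 30.0 CPM of *Pgk1*, against 10869 CPM of *Aldoa*, 4960 of *Eno3*, 3135 of *Pgam2*, 1394 of *Pfkm*, 1190 of *Tpi1*, 1147 of *Ldha*, 629 of *Pkm* and 298 of *Gpi1*. The same counts were also divided by the windows found in no other gene with up to 1 mismatch. The levels per kilobase of such windows were 150 CPM for *Gapdh*, 96.4 CPM for *Pgk1* and 16180 CPM for *Aldoa*. *Gapdh* and *Pgk1* therefore stayed the lowest of the 10 on both scales. Over the 30 libraries the genes that share windows with *Gapdh* held a mean of 6897 counts in sum, and *Gapdh* itself 476. Comparisons between groups below use the same gene on both sides. Levels are compared between genes per length, except for the *Aldoa* share below and other values given in counts.

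**Figure D1:**
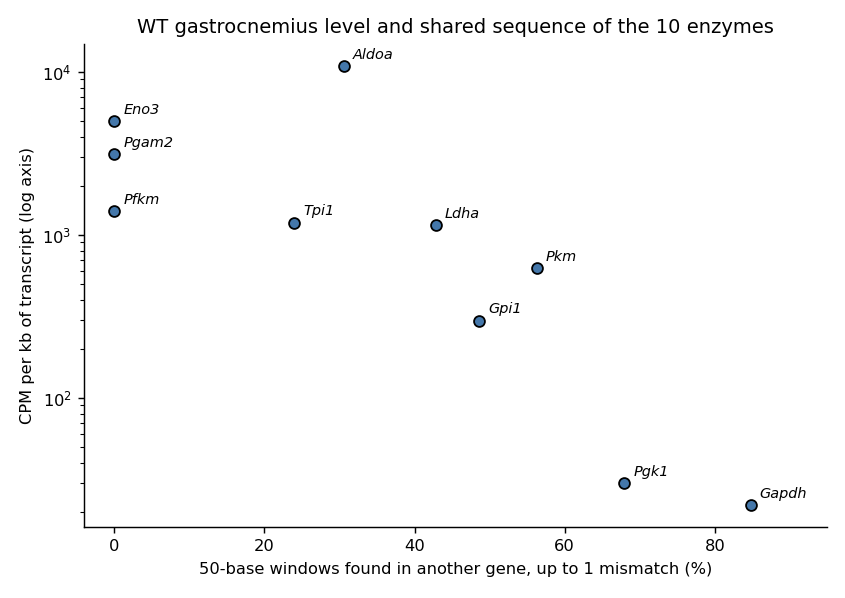
Level of each enzyme in WT gastrocnemius against the share of its transcript found elsewhere. Each point is 1 enzyme, the horizontal axis gives the percentage of 50-base windows found in another annotated gene with up to 1 mismatch, and the vertical log axis gives the mean CPM per kilobase of principal transcript over 4 libraries. *Gapdh* (84.8%, 22.1 CPM) and *Pgk1* (68.0%, 30.0 CPM) lie at the lower right, and the 3 enzymes at 0% lie between 1394 and 4960 CPM.

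Exons of 6 of the enzymes also overlap exons of other genes, and the strand setting of the counting is not given in the sources used here. The overlapping genes held a mean of 595 counts for *Iffo1*, which lies over *Gapdh* (476 counts) on the opposite strand, and 383 for *Gm49759*, which lies over *Pkm* (21973 counts) on the same strand. For the other 5 overlaps, *Senp1* and *Gm26513* with *Pfkm*, *Fam57b* with *Aldoa*, *Spsb2* with *Tpi1* and *Gm26762* with *Gpi1*, the partner held 2.2 to 515 counts and the enzyme 16005 to 193008.

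In the WT tissues every enzyme had its highest level in the gastrocnemius. The levels below are CPM after TMM scaling, which corrects library totals for a few very abundant transcripts. The factors behind these levels were set within each tissue, so they do not correct for differences between tissues. The tests between tissues scaled the libraries of both tissues together. *Aldoa*, which encodes the aldolase that cleaves fructose bisphosphate, was at 16484, 19772, 17030 and 20463 CPM in WT gastrocnemius 1 to 4, at 3925, 6576, 5758 and 3807 CPM in the WT diaphragm, at 1820, 2121, 1833 and 1502 CPM in the WT heart, and at 87.3, 89.3 and 83.0 CPM in the WT liver. No library of one WT tissue overlapped another. From counts without a length, *Aldoa* alone made 42.8% to 45.5% of the counts of the 10 enzymes in WT gastrocnemius.

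Against the WT diaphragm, all 10 enzymes were higher in WT gastrocnemius in edgeR's quasi-likelihood test, with adjusted p from 4.11e-05 (*Pgk1*) to 0.00044 (*Pfkm*). The log2 difference ran from 1.51 ± 0.200 (SE) for *Pfkm* to 2.24 ± 0.260 for *Aldoa*. Of all 15952 genes tested, 26.5% were higher in the gastrocnemius. Against the WT heart all 10 were again higher, from 1.52 ± 0.0982 for *Gpi1* to 3.76 ± 0.188 for *Aldoa*, with adjusted p of at most 1.62e-06 (edgeR), where 32.7% of 15667 genes were higher. *Pgam2*, a mutase of the lower pathway, differed by 2.84 ± 0.120 and *Eno3*, the muscle enolase, by 2.79 ± 0.194. With libraries scaled by their totals alone, the median of all genes between these tissues moved by -0.50 and -0.60, the 10 enzymes' median fell from 1.87 to 1.37 against the diaphragm and from 2.55 to 1.94 against the heart, and all 10 stayed past the threshold in both comparisons.

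The WT diaphragm and heart were closer. The test called 7 of the 10 enzymes higher in the diaphragm, where 23.4% of 16222 genes were. *Aldoa* differed most, by 1.47 ± 0.253, and *Pgk1* least of those called, by 0.49 ± 0.162 (adjusted p = 0.036, edgeR). *Eno3* (0.64 ± 0.256, adjusted p = 0.0722), *Pkm* (0.40 ± 0.189, 0.114) and *Gpi1* (-0.04 ± 0.125, 0.817) did not pass, so that for *Gpi1*, the isomerase at the entry of the pathway, the diaphragm (380 to 493 CPM) and the heart (427 to 472 CPM) did not differ beyond their spread, with a 95% interval of -0.32 to 0.25. Leaving out any 1 library left 4 to 6 calls, with 4 after WT diaphragm 2 was left out, and 1 of the called enzymes had a log2 difference over 1.

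The liver separated the muscle forms from the forms used by every cell. As a description with no test, since the enzymes were named as those of muscle, the mean WT liver level by library totals was 0.0128% of the WT gastrocnemius level for *Pgam2*, 0.0885% for *Eno3*, 0.334% for *Pkm*, 0.536% for *Aldoa* and 0.618% for *Pfkm*. It was 14.1% for *Tpi1*, 15.1% for *Gpi1*, 20.8% for *Gapdh*, 23.6% for *Ldha* and 26.3% for *Pgk1*. *Ldha* thus lay with the widely used enzymes.

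**Figure D2:**
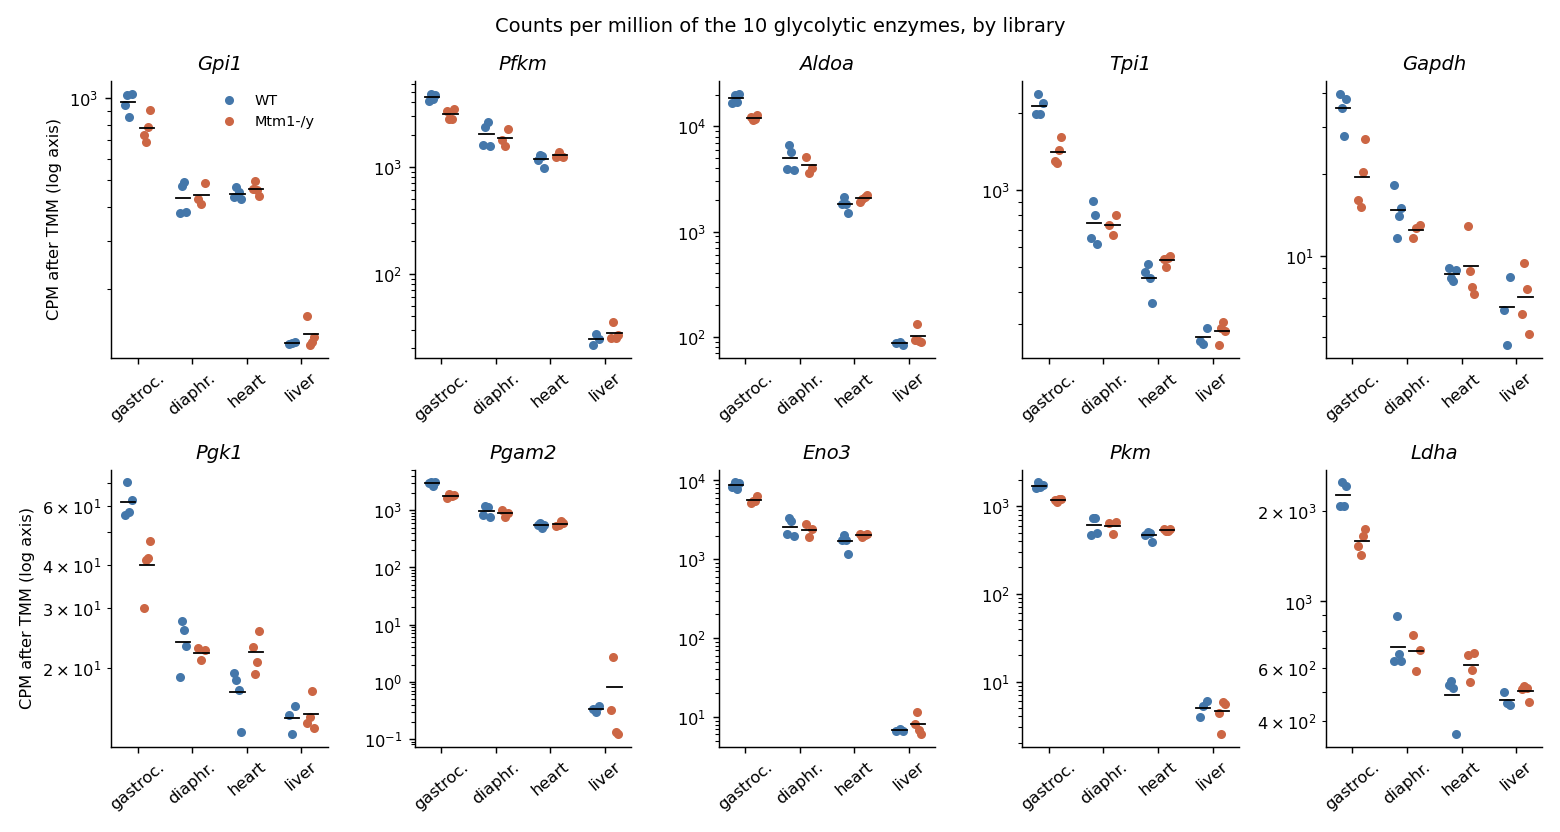
Level of each enzyme in each of the 30 libraries. Each panel is 1 enzyme, points are libraries (blue WT, orange *Mtm1*-/y), and short black lines are group means. The vertical log axis gives CPM after TMM scaling within each tissue. The gastrocnemius lies highest in every panel, and its *Mtm1*-/y points lie below its WT points in all panels but that of *Gpi1*, where the groups overlap.

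In the gastrocnemius, all 10 enzymes were lower in *Mtm1*-/y than in WT libraries. The log2 fold change ran from -0.31 (*Gpi1*) to -0.84 (*Gapdh*) with a median of -0.61, against a median of 0.02 over all 15456 genes tested, and the adjusted p from 0.000397 (*Pgam2*) to 0.0475 (*Gpi1*) in edgeR's quasi-likelihood test. By the same threshold 14.4% of all genes were lower and 14.4% were higher. None of the 10 had an absolute log2 fold change over 1, the second threshold of the study, which 6.63% of all genes passed together with the adjusted p. In 9 of the 10 every *Mtm1*-/y library lay below every WT library, which held for 15.5% of all genes. DESeq2 and limma voom also called all 10.

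Positions are mm10 gene bodies from the GENCODE annotation, and the counts cover their exons. *Gpi1* (ENSMUSG00000036427, chr7:34201330-34230336, minus strand) encodes glucose-6-phosphate isomerase, which turns glucose 6-phosphate into fructose 6-phosphate. It was at 944, 1023, 850 and 1038 CPM in WT gastrocnemius and at 731, 694, 787 and 906 CPM in *Mtm1*-/y gastrocnemius. The groups overlapped, since *Mtm1*-/y 4 lay above WT 3. The log2 fold change was -0.31 ± 0.102 (SE), or 80.9% of WT. This was the weakest of the 10 calls, and *Gpi1* no longer passed with no filter on low counts (adjusted p = 0.0838, edgeR).

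*Pfkm* (ENSMUSG00000033065, chr15:98092589-98132451, plus strand) encodes muscle phosphofructokinase, the main control point of glycolysis. Its WT levels were 4141, 4831, 4339 and 4696 CPM and its *Mtm1*-/y levels 3317, 2813, 2814 and 3462 CPM. The groups did not overlap, and *Mtm1*-/y was at 68.9% of WT (log2 fold change -0.54 ± 0.0990, adjusted p = 0.00341, edgeR). *Aldoa* (ENSMUSG00000030695, chr7:126795234-126800751, minus strand), with the WT values given above, was at 12220, 11531, 11720 and 12916 CPM in *Mtm1*-/y gastrocnemius. The highest *Mtm1*-/y library lay well below the lowest WT library, and *Mtm1*-/y was at 65.6% of WT (-0.61 ± 0.101, adjusted p = 0.00207, edgeR).

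*Tpi1* (ENSMUSG00000023456, chr6:124810586-124814296, minus strand) encodes triosephosphate isomerase, which interconverts both products of the aldolase step. Its levels were 1994, 2391, 1992 and 2206 CPM in WT and 1303, 1276, 1443 and 1614 CPM in *Mtm1*-/y libraries. The groups did not overlap, and *Mtm1*-/y was at 65.7% of WT (-0.61 ± 0.101).

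*Gapdh* (ENSMUSG00000057666, chr6:125161715-125166467, minus strand) encodes glyceraldehyde-3-phosphate dehydrogenase, the step that makes NADH, and its transcript is often taken as a reference in RT-qPCR. In the uniquely aligned counts it was at 39.8, 35.3, 27.7 and 38.03 CPM in WT and at 16.1, 15.2, 20.4 and 26.9 CPM in *Mtm1*-/y gastrocnemius. The groups came close (27.7 against 26.9 CPM) without overlapping. The fold change of -0.84 ± 0.182 was the largest in size of the 10 and had the widest error (adjusted p = 0.00758, edgeR), and most of its transcript is shared with other genes, as described above.

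*Pgk1* (ENSMUSG00000062070, chrX:106187100-106203699, plus strand), on the X chromosome like *Mtm1*, encodes phosphoglycerate kinase, the first step that returns ATP. It was at 56.2, 70.2, 57.6 and 62.1 CPM in WT and at 29.9, 41.6, 42.0 and 47.2 CPM in *Mtm1*-/y libraries. The groups did not overlap, and *Mtm1*-/y was at 65.3% of WT (-0.61 ± 0.132, adjusted p = 0.00737, edgeR).

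*Pgam2* (ENSMUSG00000020475, chr11:5801640-5803733, minus strand) encodes the muscle phosphoglycerate mutase and shares no window with another gene. Its levels were 2968, 3075, 2670 and 3090 CPM in WT and 1616, 1902, 1763 and 1840 CPM in *Mtm1*-/y gastrocnemius. Every *Mtm1*-/y library lay well below the lowest WT library, at 60.3% of WT (-0.73 ± 0.0843), and the adjusted p of 0.000397 (edgeR) was the smallest of the 10.

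*Eno3* (ENSMUSG00000060600, chr11:70657202-70662513, plus strand), which makes phosphoenolpyruvate, was at 8225, 9474, 7906 and 9210 CPM in WT and at 5143, 5509, 5434 and 6285 CPM in *Mtm1*-/y libraries, with no overlap and 64.3% of WT (-0.64 ± 0.0988). *Pkm* (ENSMUSG00000032294, chr9:59656368-59679375, plus strand), whose product pyruvate kinase yields the second ATP, was at 1595, 1872, 1647 and 1744 CPM in WT and at 1175, 1118, 1197 and 1222 CPM in *Mtm1*-/y libraries, with no overlap and 68.7% of WT (-0.54 ± 0.0758). Counts per gene do not separate the M1 and M2 transcripts of *Pkm*. *Ldha* (ENSMUSG00000063229, chr7:46841475-46855627, plus strand), which encodes the lactate dehydrogenase subunit that favours lactate formation, was at 2086, 2500, 2085 and 2425 CPM in WT and at 1529, 1426, 1657 and 1742 CPM in *Mtm1*-/y libraries, with no overlap and 69.9% of WT (-0.52 ± 0.0968). Adjusted p for these 3 was 0.00145, 0.000918 and 0.00364 (edgeR).

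The size of these changes rests on the scaling. TMM factors were 0.8605 to 0.9322 in WT and 1.102 to 1.155 in *Mtm1*-/y gastrocnemius, so that scaling by library totals alone moved the median of all genes from 0.02 to 0.35 on the log2 scale. On that scale the median of the 10 enzymes was -0.28, 7 of them were still called lower, *Pgk1* (-0.29, adjusted p = 0.0826, edgeR) and *Ldha* (-0.19, 0.0748) lost the call, and *Gpi1* changed sign (0.02, 0.847). Called genes of the whole table were then lower in *Mtm1*-/y in 7.92% instead of 50%. DESeq2's size factors left the median of the enzymes at -0.61. Without any factor, every *Mtm1*-/y library lay below every WT library for 7 of the 10, while *Gpi1*, *Gapdh* and *Ldha* overlapped. As a share of all counts of a library, which is the scale of library totals, the 10 enzymes made 3.72% ± 0.181 (SD, n = 4, 3.54% to 3.88%) in WT and 3.09% ± 0.165 (n = 4, 2.94% to 3.31%) in *Mtm1*-/y gastrocnemius, without overlap.

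Markers of other cells moved with the genotype in the same muscle. The 12 fast fibre markers, among them *Myh4*, were lower in 10 and higher in 2 (median -0.75), and their summed CPM by library totals were 183600 to 201400 in WT and 135800 to 160600 in *Mtm1*-/y libraries. Of the 10 slow fibre markers 1 was higher and 1 lower. Markers of white adipocytes were higher in 7 of 8 (sums of 186 to 265 CPM against 358 to 532 CPM), those of macrophages in 7 of 8 (26.5 to 52.5 against 95.4 to 123 CPM) and those of fibroblasts in 3 of 6, and none of these markers was at 0 in all libraries of a gastrocnemius group. Of the 8 cardiomyocyte markers, several of which immature or stressed fibres also use, 4 could be tested, 2 were higher (*Tnnt2* and *Tnni3*) and 1 was lower (*Actc1*, the cardiac actin), with a median of 0.19. Their sum was 5559 to 6677 CPM in WT and 654 to 2556 CPM in *Mtm1*-/y libraries and followed *Actc1* (6514 ± 377 and 1455 ± 819 CPM after TMM scaling, SD, n = 4 each), with *Nppa* at 0 in all WT and *Myl7* at 0 in all *Mtm1*-/y libraries. The part of these cells in the change of the enzymes was not tested. With the adipocyte marker score as a covariate, the 10 log2 fold changes were -1.5 to -0.61 and 0 of the 10 was called (adjusted p 0.0563 to 0.292, edgeR). The sums of these markers do not overlap between the genotypes, so this fit can hardly separate the score from the genotype. The SE rose to 0.175 for *Pgam2* and to 0.204 for *Aldoa*. Without 1 library at a time 9 or 10 of the 10 were called.

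**Figure D3:**
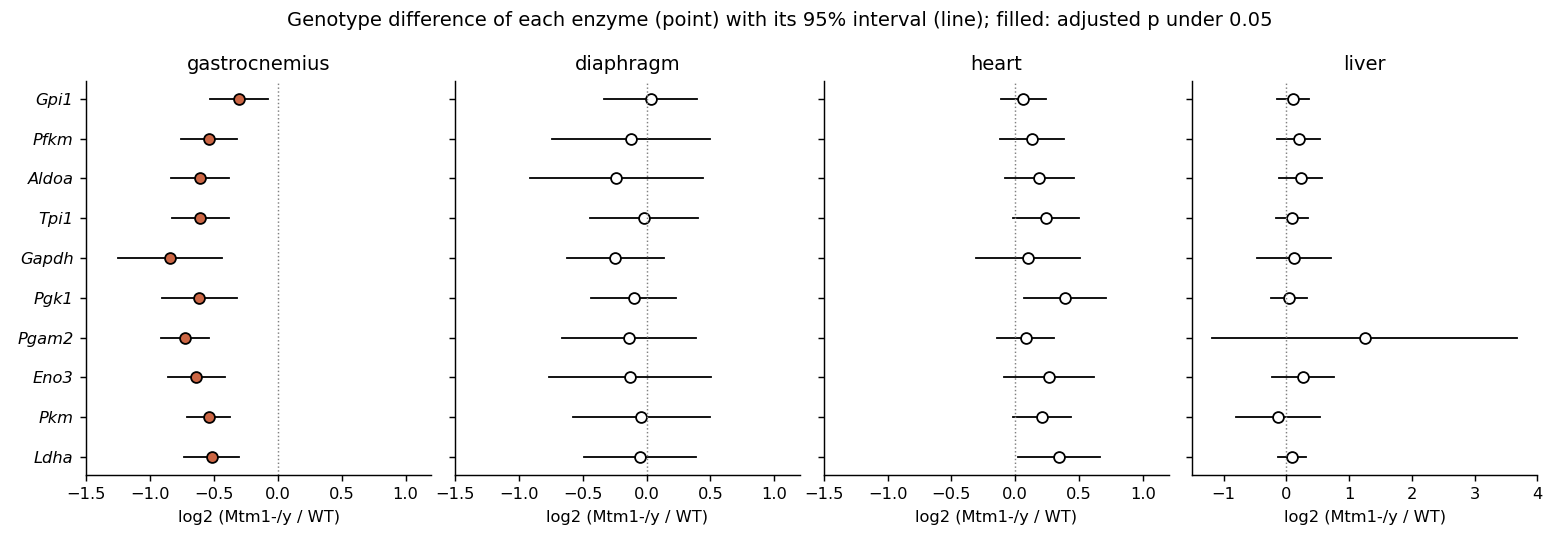
Genotype difference of each enzyme in the 4 tissues. Points give the log2 ratio of *Mtm1*-/y to WT, lines the 95% interval of edgeR's quasi-likelihood fit, and filled points an adjusted p under 0.05. All 10 points of the gastrocnemius are filled and lie between -0.84 and -0.31. No point of the diaphragm, heart or liver is filled.

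In the diaphragm none of the 10 enzymes was called, where 0.0119% of 16796 genes were (2 genes). The unadjusted p was under 0.05 for 0 of the 10, against 10.8% of all genes, and DESeq2 called 0. Log2 fold changes ran from -0.24 (*Gapdh*) to 0.03 (*Gpi1*), and the groups overlapped for all 10, where 5.4% of all genes were higher in every *Mtm1*-/y diaphragm. *Pgam2* was at 824, 1192, 1138 and 758 CPM in WT diaphragm 1 to 4 and at 1014, 751 and 901 CPM in *Mtm1*-/y diaphragm 1, 2 and 4. All 3 *Mtm1*-/y libraries lay within or just below the WT range, and the 95% interval of the log2 fold change was -0.66 to 0.38. *Aldoa* was at 3925, 6576, 5758 and 3807 CPM in WT and at 5167, 3613 and 4000 CPM in *Mtm1*-/y libraries (-0.24, interval -0.91 to 0.44). The 3 libraries with the highest hepatocyte sums, WT 1, WT 4 and *Mtm1*-/y 2, had the lowest *Aldoa* of their genotype. The other libraries did not follow this order. WT 2, with a sum of 28470 CPM, had the highest *Aldoa*, and *Mtm1*-/y 4 (1030 CPM) had less *Aldoa* than *Mtm1*-/y 1 (3981 CPM). Among the 3 libraries with hepatocyte sums under 5000 CPM, 1 WT and 2 *Mtm1*-/y, the 10 log2 fold changes were -0.36 (*Pfkm*) to 0.13 (*Ldha*), given as values only, since 3 libraries leave 1 residual degree of freedom.

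In the heart none was called either, where 0.00656% of 15238 genes were (1 gene). All 10 log2 fold changes were positive, from 0.06 (*Gpi1*) to 0.39 (*Pgk1*), with a median of 0.20, and DESeq2 called 0. The unadjusted p was under 0.05 for *Pgk1* (0.39 ± 0.142) and *Ldha* (0.34 ± 0.142), 2 of the 10 against 8.88% of all genes, and their adjusted p was 0.546 (edgeR). *Pgk1* was at 19.3, 18.4, 17.2 and 12.9 CPM in WT and at 23.0, 19.2, 20.8 and 25.7 CPM in *Mtm1*-/y heart. *Ldha* was at 526, 542, 515 and 361 CPM in WT and at 663, 539, 590 and 670 CPM in *Mtm1*-/y heart. *Pgk1* groups came close and overlapped at 19.2 and 19.3 CPM, *Ldha* groups overlapped at 539 and 542 CPM, and WT heart 4 was the lowest library of both. Without it the 10 values were 0.04 (*Gpi1*) to 0.28 (*Pgk1*), with adjusted p of 0.867 to 0.934 (edgeR). *Pkm* was the 1 enzyme of 10 whose groups did not overlap, where 2.1% of all genes were higher in every *Mtm1*-/y heart, with WT hearts at 472, 510, 493 and 386 CPM and *Mtm1*-/y hearts at 555, 518, 527 and 547 CPM (0.21 ± 0.100, adjusted p = 0.546, edgeR).

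In the liver 0 of the 10 was called, as was 0% of 14305 genes, and DESeq2 called 0 of the 10. The edgeR test thus did not call the targeted gene either. By library totals *Mtm1* was at 12.9 to 19.6 CPM in WT and at 3.28 to 6.09 CPM in *Mtm1*-/y liver, without overlap. The paper reports more genes that differ by genotype in the diaphragm, the heart and the liver than were called here. A lack of calls in these tissues therefore does not show a lack of genotype effects. The unadjusted p was under 0.05 for 0 of them, against 4.24% of all genes. Values were positive for 9 and negative for *Pkm* (-0.13 ± 0.293). *Aldoa* was at 87.3, 89.3 and 83.0 CPM in WT and at 93.9, 132, 90.4 and 89.7 CPM in *Mtm1*-/y liver (0.23 ± 0.15, adjusted p = 0.969, edgeR). It was the 1 enzyme of 10 without overlap there, where 2.62% of all genes were higher in every *Mtm1*-/y liver. *Mtm1*-/y liver 2, the library with the raised fast fibre markers, held the highest *Aldoa*, *Pfkm*, *Eno3* and *Pgam2* of its group. *Pgam2* was at 0.334, 0.290 and 0.376 CPM in WT and at 0.323, 2.67, 0.130 and 0.122 CPM in *Mtm1*-/y liver, so its fold change of 1.25 ± 1.07 rested on that library and was -0.83 without it.

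Whether the genotype effect differed between tissues was tested as a contrast of both effects in 1 fit. Between gastrocnemius and heart the effect was lower in the gastrocnemius for all 10 enzymes, where 9.94% of 16627 genes were. The difference was largest for *Pgk1* (-1.03 ± 0.207, adjusted p = 0.00386, edgeR) and smallest for *Gpi1* (-0.39 ± 0.132, 0.0468). *Eno3* differed by -0.93 ± 0.197 and *Pgam2* by -0.84 ± 0.136. With library totals alone 7 of the 10 were called, *Pfkm* and *Gapdh* lost the call, and *Gpi1* was at 0.01. Marker lists moved in the same contrast, where 9.89% of all genes were higher in the gastrocnemius: white adipocyte markers were higher in 7 of 8 (median 4.25), macrophage markers in 7 of 8 (1.46), and hepatocyte markers lower in 9 of 12 (-4.13). The 12 hepatocyte markers summed to 21.2 to 120 CPM in the gastrocnemius and 9.24 to 186 CPM in the heart, against at least 159700 CPM in the liver. The part of these cell types in the difference was not tested.

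Between gastrocnemius and diaphragm the same contrast called 0 of the 10, where 0.28% of 17509 genes were called (49 genes), and DESeq2 called 0 of the 10. All 10 differences were negative, from -0.34 ± 0.181 for *Gpi1* to -0.60 ± 0.267 for *Gapdh*. With library totals alone they ran from -0.32 to -0.06, and their median fell in size from -0.50 to -0.23 while that of all genes moved from 0.03 to 0.31. An unadjusted p under 0.05 was found for 6 of them, against 12.8% of all genes, and the adjusted p was 0.269 to 0.627 (edgeR). The intervals were wide, -1.02 to -0.15 for *Tpi1* and -0.995 to 0.26 for *Aldoa*, and each of the 10 contained the log2 fold change that the enzyme had in the gastrocnemius. Between diaphragm and heart 0 of the 10 was called, where 0.00573% of 17466 genes were (1 gene), with *Pgk1* at -0.50 ± 0.211 as the 1 enzyme with an unadjusted p under 0.05 (10.6% of all genes), and DESeq2 called 0. The 3 contrasts share libraries.

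For 5 of the steps the share of the muscle form among all forms of the enzyme was taken within each library, from counts per kilobase of exon, which no scaling between libraries can change. The other forms are *Pfkl* and *Pfkp*, *Pgam1*, *Eno1*, *Eno1b* and *Eno2*, *Pklr*, and *Ldhb* and *Ldhc*. *Ldha* was taken as the muscle form, though it made 35.1% of lactate dehydrogenase in the WT diaphragm and 99.6% in the WT liver. In WT gastrocnemius *Pfkm* made 99.8% of phosphofructokinase, *Eno3* 99.9% of enolase, *Pkm* 99.98% of pyruvate kinase, *Pgam2* 99.99% of phosphoglycerate mutase and *Ldha* 89.5% ± 1.89 (SD, n = 4) of lactate dehydrogenase. In *Mtm1*-/y gastrocnemius *Pfkm* was at 99.63% against 99.78% in WT and *Eno3* at 99.80% against 99.87%. The groups did not overlap for *Pfkm*, *Pgam2* and *Eno3*, each at p = 0.0286 in the two-sided exact permutation test, the smallest p that these group sizes allow, and at 0.0571 after adjustment over 6 enzymes. None of the 5 passed in any tissue after adjustment. At that smallest p an enzyme could pass only if most of the 6 reached it. The lack of calls therefore does not show a lack of change in the shares.

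Lactate dehydrogenase separated the muscles. *Ldha* made 87.8%, 91.8%, 88.1% and 90.3% of it in WT gastrocnemius 1 to 4 and 86.2%, 80.7%, 92.3% and 88.3% in *Mtm1*-/y gastrocnemius. The groups overlapped widely. In the diaphragm it made 35.1% ± 5.99 (n = 4) in WT and 37.0% ± 6.05 (n = 3) in *Mtm1*-/y, in the heart 24.9% ± 2.32 (n = 4) and 25.1% ± 1.94 (n = 4), and in the liver 99.6% ± 0.125 (n = 3) and 99.3% ± 0.168 (n = 4). *Ldhb*, the subunit that favours pyruvate formation, had 711 ± 190 CPM (SD) in the 4 WT hearts and 870 ± 37.8 CPM in the 4 *Mtm1*-/y hearts. With windows found in no other gene in place of exon length, the WT *Ldha* shares were 90.3% for gastrocnemius, 37.2% for diaphragm and 26.6% for heart. They were 93.0%, 45.6% and 34.0% with the length of the principal transcript, and 94.7%, 53.1% and 41.1% from counts without a length, so the shares of the diaphragm and heart depend on the length while their order did not change.

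In the diaphragm, *Pkm* made 84.3% ± 12.8 (SD, n = 4) of pyruvate kinase in WT and 90.0% ± 15.7 (n = 3) in *Mtm1*-/y libraries, beside the hepatocyte sums given above. The rest was *Pklr*, the form of liver and red blood cells. In the WT liver the muscle forms made 0.897% of pyruvate kinase, 17.2% of phosphoglycerate mutase, 21.6% of enolase and 48.6% of phosphofructokinase. With unshared windows as the length they were 2.85%, 10.1%, 2.12% and 37.3%, and from counts without a length 1.38%, 8.08%, 10.5% and 31.6%. The enolase share depends on *Eno1*, 83.3% of whose windows recur elsewhere.

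**Figure D4:**
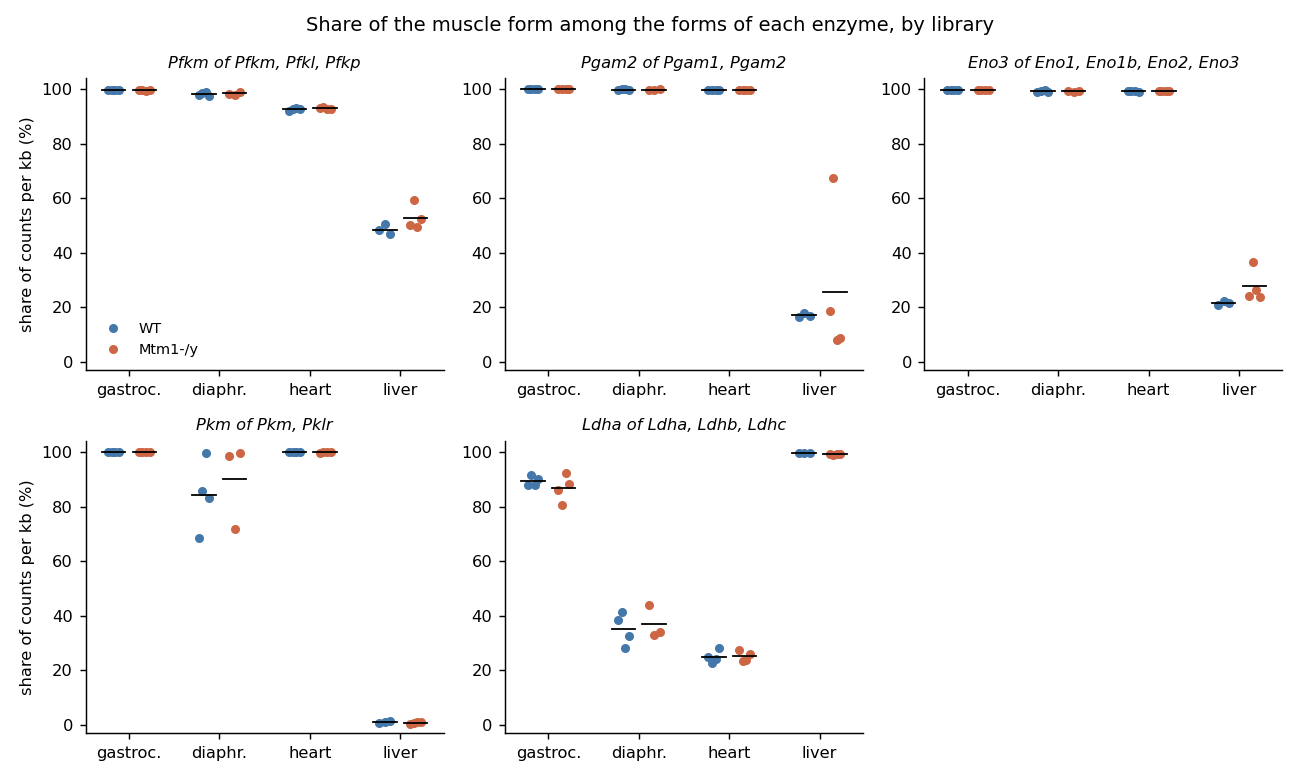
Share of the muscle form among the forms of 5 enzymes. Each panel is 1 enzyme, points are libraries (blue WT, orange *Mtm1*-/y), black lines are group means, and the vertical axis is the percentage of counts per kilobase of exon. *Ldha* falls from 89.5% in WT gastrocnemius to 35.1% in WT diaphragm and 24.9% in WT heart. *Pkm* in the diaphragm spreads from 68.6% to 99.7% in WT and from 71.9% to 99.5% in *Mtm1*-/y libraries.

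The rest of the pathway was read from 5 lists, whose counts stand beside 14.4% of all genes lower and 14.4% higher in the gastrocnemius. Of the 13 other isozymes, 9 could be tested in the gastrocnemius, and 1 passed, *Eno2*, the neuronal enolase, which was higher (from 1.38 ± 0.388 to 2.77 ± 0.342 CPM with SDs over 4 libraries, log2 fold change 0.99 ± 0.219 with its SE). The median of the list was 0.0036, close to that of all genes.

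Of the 9 genes for glucose transport and phosphorylation, 7 could be tested and all passed, 3 higher and 4 lower, with a median of -0.34. *Slc2a4*, the insulin-dependent glucose transporter of muscle and fat, fell from 737 ± 47.1 to 476 ± 65.5 CPM (-0.63 ± 0.103, adjusted p = 0.00189, edgeR). *Slc2a3*, a high-affinity transporter, fell from 11.7 ± 2.81 to 2.00 ± 0.662 CPM (-2.54 ± 0.249). *Hk1*, a hexokinase found in most tissues, rose from 15.6 ± 1.30 to 21.6 ± 1.06 CPM (0.46 ± 0.0783). The genes that rose and fell in this list thus do not move as 1 group.

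Of 11 genes that control flux or shuttle its products, 6 were lower and 0 higher (median -0.56), against 14.4% of all genes in each direction. *Fbp2*, the muscle fructose bisphosphatase, fell from 49.5 ± 13.4 to 19.1 ± 6.43 CPM (-1.37 ± 0.250). *Gpd1* and *Gpd2*, the cytosolic and mitochondrial parts of the glycerol phosphate shuttle that carries electrons of glycolytic NADH to mitochondria, fell from 992 ± 107 to 465 ± 90.8 CPM (-1.10 ± 0.142) and from 309 ± 39.8 to 165 ± 19.8 CPM (-0.90 ± 0.113). *Bpgm*, which makes 2,3-bisphosphoglycerate, fell from 130 ± 13.3 to 72.9 ± 7.86 CPM (-0.83 ± 0.0971). *Gpd1* and *Fbp2* passed the fold threshold that none of the 10 enzymes reached.

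Of 6 genes that move lactate and pyruvate across membranes, 3 were lower and 0 higher (median -0.36), against the same 14.4% in each direction. *Slc16a3*, the lactate exporter of glycolytic fibres, fell from 385 ± 49.5 to 199 ± 14.0 CPM (-0.95 ± 0.0990, adjusted p = 0.00025, edgeR). Its chaperone *Bsg* fell from 547 ± 69.1 to 384 ± 5.35 CPM (-0.51 ± 0.0904), and *Mpc2*, of the mitochondrial pyruvate carrier, from 133 ± 11.4 to 96.4 ± 9.27 CPM (-0.46 ± 0.0892).

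Of 11 transcription factors linked to glycolytic genes, 4 were lower and 2 higher (median -0.06). Against 14.4% of all genes in each direction, the share of those higher was near the background. *Epas1*, a hypoxia-inducible factor, fell from 198 ± 10.9 to 143 ± 10.2 CPM (-0.47 ± 0.0721). *Mlxip* and *Mlxipl*, which sense glucose phosphates, fell by 0.33 and 0.43 on the log2 scale, and *Myc* rose from 3.67 ± 0.751 to 9.28 ± 2.74 CPM (1.34 ± 0.236). No gene of the 5 lists was called in the diaphragm, heart or liver, among them *Slc2a4* (diaphragm -0.34 ± 0.208, heart 0.19 ± 0.114) and *Epas1* (-0.49 ± 0.130 and -0.13 ± 0.0942).

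**Figure D5:**
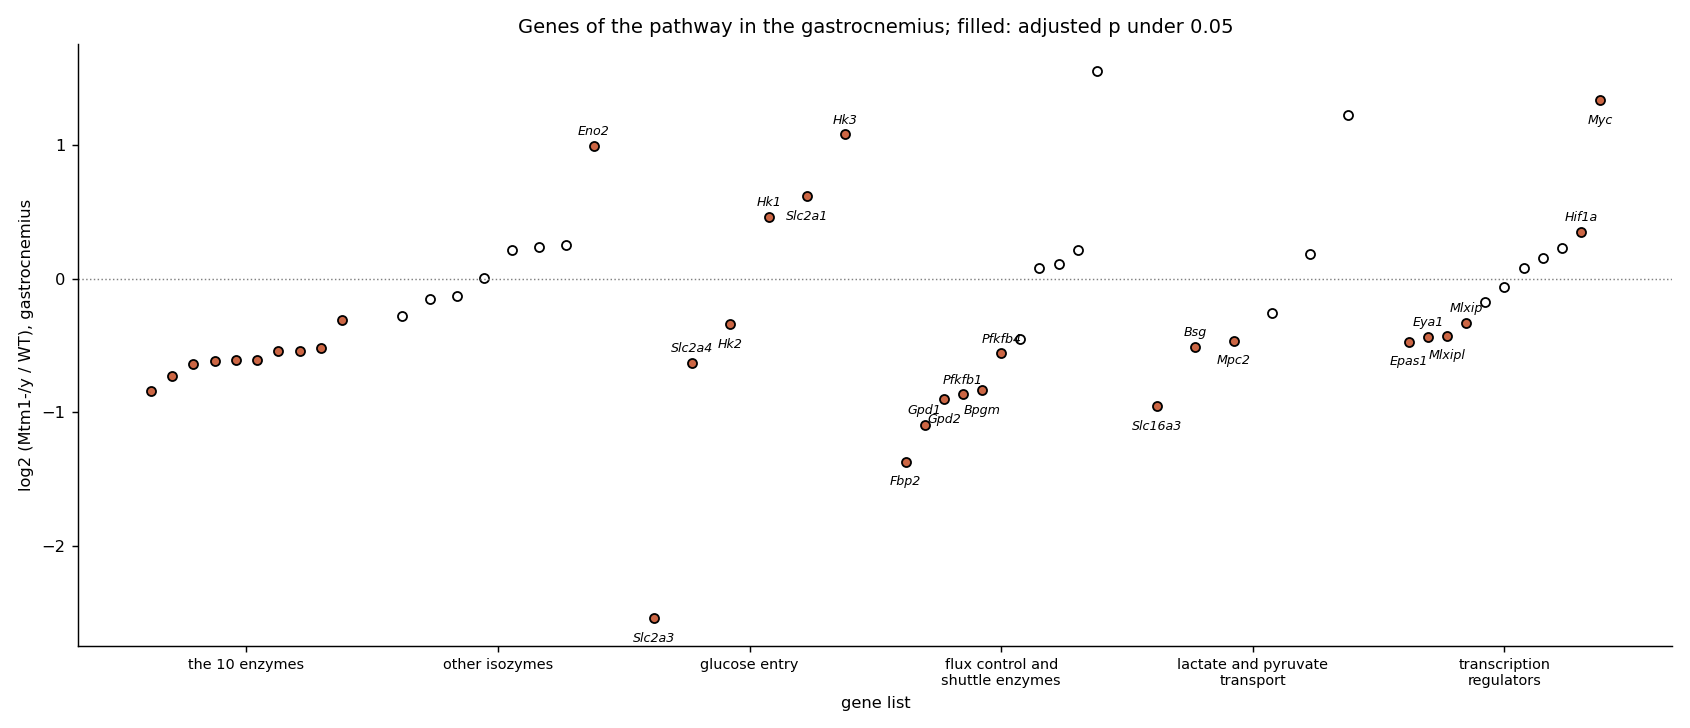
Log2 ratio of *Mtm1*-/y to WT in the gastrocnemius for genes of the pathway. Each point is 1 gene, the columns are the 10 enzymes and the 5 other lists (6 of the 7 genes tested for glucose entry, and 8 of 9 other isozymes), and filled points have an adjusted p under 0.05. The 10 enzymes lie between -0.84 and -0.31, and the filled points of the glucose entry list run from -2.54 to 1.08.

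The promoters of the 10 enzymes were searched for 5 motifs on both strands in the 250 bases before each annotated RefSeq start (GRCm38.p6), 17 windows in all. The E-box CANNTG, which muscle regulators such as MyoD bind, was found in 14 of the 17 windows and at 9 of the 10 enzymes, against 66.2% of the 32851 promoters of 27025 genes. The core ACGTG of hypoxia response elements was found in 7 windows, at *Aldoa*, *Ldha*, *Pfkm*, *Pgk1* and *Pkm*, against 16.6%. CACGTG, which is also a CANNTG and holds ACGTG on both strands, was found in 2, at *Ldha* and *Pfkm*, against 6.02%. The MEF2 motif, searched only in a form that reads the same on both strands, and the MEF3 motif TCAGGTT were found in 0, against 3.20% and 3.49%. Other forms of the MEF2 site were not searched. Whether the windows, that of *Pgam2* among them, hold such a form was not tested. The windows of 1 gene can overlap, and a match is only a match of letters.

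The windows with the most E-boxes and the most ACGTG are shown because the first belongs to the enzyme with the smallest adjusted p and the second to the enzyme that ends the pathway. They were picked after the matches had been counted, and capitals mark the matches.
Pgam2: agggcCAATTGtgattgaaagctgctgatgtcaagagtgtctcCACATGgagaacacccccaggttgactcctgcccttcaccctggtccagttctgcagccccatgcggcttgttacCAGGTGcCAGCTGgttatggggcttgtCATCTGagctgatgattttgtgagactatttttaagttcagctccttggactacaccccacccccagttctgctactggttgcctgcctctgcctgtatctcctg
Ldha: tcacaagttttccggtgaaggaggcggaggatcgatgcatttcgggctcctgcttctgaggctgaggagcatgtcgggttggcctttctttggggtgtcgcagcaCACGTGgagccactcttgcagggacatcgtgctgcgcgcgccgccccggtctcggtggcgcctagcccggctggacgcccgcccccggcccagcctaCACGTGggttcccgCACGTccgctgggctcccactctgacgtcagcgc
The *Pgam2* window lies at chr11:5803797-5804046 on the minus strand and holds 5 E-boxes and 0 ACGTG. The *Ldha* window lies at chr7:46845554-46845803 on the plus strand and holds 2 CACGTG and, counting each strand, 5 ACGTG. Both enzymes fell in the gastrocnemius.

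The genes whose level followed that of the 10 enzymes most closely were ranked by Pearson's r with the mean of the enzymes, leaving out genes below a mean of 10 CPM and those of the lists used here. Over all 30 libraries, which fall into 4 tissues, these were *Camk2a* (r = 0.999), *Setd7* (0.994), *Plpp7* (0.994), *Fxr1* (0.993) and *Pygm* (0.992) among 9176 genes. Over the 8 gastrocnemius libraries they were *Pygm*, the muscle glycogen phosphorylase that feeds glucose phosphate into the pathway (0.992), *Myoz1* (0.991), *Def8* (0.990), *Golm1* (0.990) and *Tpm1* (0.989) among 9174. These values describe libraries that share tissue, genotype and scaling, with TMM factors set within each tissue.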

How the data were processed

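The values are raw counts of reads per gene, which the authors made before deposit. Libraries from 350 ng of total RNA (TruSeq Stranded mRNA) were sequenced as single reads of 50 bases, and per the paper's methods and the submitters' processing notes reads were trimmed with cutadapt 1.10, aligned to mm10 with STAR 2.5.3a and counted with HTSeq 0.6.1p1 on Ensembl 96 genes, keeping unique and unambiguous reads. The strand setting is not given in the sources used here. Reads from repeated transcripts are therefore lost.

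All tests were run in R 4.3.3. Both genotypes of a tissue entered 1 fit of edgeR 4.0.16 (quasi-likelihood test, TMM, filterByExpr at a count minimum of 10, Benjamini-Hochberg over all genes tested), and calls were made below an adjusted p of 0.05, with the count over an absolute log2 fold change of 1 beside it. All 10 enzymes passed the filter in every comparison. Tissues were compared by the same test, effects between tissues as a contrast of both tissues, and isozyme shares by exact permutation of libraries, adjusted over 6 enzymes. Levels are mean CPM ± SD. Windows of 50 bases were compared with all annotated GENCODE transcripts. Alternatives were DESeq2 1.42.0, its size factors, limma 3.58.1 voom, library totals, no filter, the replicate number as a block, all 30 libraries in 1 fit, marker scores as covariates, scaling without liver genes, other lengths for the isozyme shares, and leaving out each library. Library totals, the diaphragm subset, scaling without liver genes between tissues, and transcript or unshared window lengths were added after the data were seen. Simulated data with set changes were used to test the gastrocnemius genotype fit, its contrast with the heart, and WT gastrocnemius against WT diaphragm. The other fits were not tested in this way.

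The enzymes, lists, motifs and tests were chosen with earlier results of these data known. Named are the 10 enzymes, and per list and tissue up to 4 called genes with the smallest p, or up to 2 most abundant where none was called, except where an item is not reported here, which also leaves 5 of the 6 isozyme shares.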

Additional observations from a re-analysis of the deposited data

Results flagged for a closer look

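In groups of 4 libraries, 90 sets of values (levels and isozyme shares) were searched for a library far from the others by Dixon's criterion (the gap to the nearest library over the range), and 7 were found. Chance alone is expected to give about 1 in 20. *Mtm1*-/y liver 2 accounts for 4 of them, with *Pfkm* at 35.3 CPM (others 25.2 to 26.4), *Aldoa* at 132 CPM (others 89.7 to 93.9), *Pgam2* at 2.67 CPM (others 0.122 to 0.323) and an *Ldha* share of lactate dehydrogenase of 99.08% (others 99.39% to 99.42%). WT diaphragm 2 held *Ldha* at 892 CPM (others 633 to 669), WT heart 4 held *Ldha* at 361 CPM (others 515 to 542), and in *Mtm1*-/y heart 1 the *Pkm* share of pyruvate kinase was 99.79% (others 99.94% to 99.95%).

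The genotype effect differed between gastrocnemius and heart for all 10 enzymes in edgeR's contrast. The log2 differences, gastrocnemius minus heart, were -0.39 for *Gpi1*, -0.69 for *Pfkm*, -0.82 for *Aldoa*, -0.87 for *Tpi1*, -0.97 for *Gapdh*, -1.03 for *Pgk1*, -0.84 for *Pgam2*, -0.93 for *Eno3*, -0.77 for *Pkm* and -0.88 for *Ldha*. Only that of *Gpi1* was lost in most of the alternatives tried, 16 of 21, and it was 0.01 with library totals alone.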

How the results depend on the processing

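Of 1870 alternative values of single enzymes, 1739 kept their direction and their side of the threshold. Another 58 lost and 2 gained the call, and 73 changed sign, 2 of which are also among those lost. Many of the 1870 belong to comparisons without a call in the main fit, the isozyme shares among them. Keeping their side of the threshold there says little. In the gastrocnemius 0 of the 10 enzymes passed when a log2 fold change over 1 was also asked and 0 with the adipocyte score as a covariate, 7 with library totals, 8 with all 30 libraries in 1 fit (without *Pgam2*, adjusted p = 0.308, and *Pkm*, 0.0548, edgeR), 9 with no filter and 9 with the replicate number as a block. In this muscle the adipocyte score can hardly be separated from the genotype, as stated above. *Gpi1* lost the call in 10 of 16 alternatives. Between WT diaphragm and heart 1 passed with a log2 difference over 1, and 4 to 6 without 1 library.

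Same-numbered WT and *Mtm1*-/y libraries, each centred on its group mean, correlated at 0.0123 to 0.109 in the gastrocnemius and at -0.813 to 0.651 in the diaphragm. The range was -0.616 to 0.362 in the heart and -0.00105 to 0.439 in the liver. With so few libraries a group, these values cannot show whether the numbers mark pairs. The replicate block left 0 calls in the diaphragm, heart and liver, and turned *Pfkm* (0.031), *Tpi1* (0.035) and *Pkm* (0.079) in the diaphragm.

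The other values that changed sign were uncalled, apart from *Gpi1* in the gastrocnemius (0.022) and in its difference to the heart (0.014), both with library totals. Diaphragm: *Tpi1* 0.033, *Pkm* 0.018 and *Ldha* 0.0046 with library totals. With voom *Tpi1* was 0.033, *Pgam2* 0.028, *Eno3* 0.071, *Pkm* 0.11 and *Ldha* 0.029. *Gpi1* was -0.0099 with the hepatocyte score and -0.10 in libraries with little liver RNA, where *Ldha* was 0.13. Heart: with the adipocyte score *Gpi1* was -0.041, *Pfkm* -0.18, *Aldoa* -0.13, *Tpi1* -0.028, *Eno3* -0.18 and *Pkm* -0.048, and with voom *Gapdh* was -0.0034. Liver: *Pgk1* was -0.0010 with library totals and *Pgam2* -0.49 with voom. *Gpi1* between diaphragm and heart was 0.074 with library totals (difference of effects) and 0.00057 with scaling without liver genes (WT level). The causes were not tested.

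Without 1 library at a time, signs turned within these ranges. Diaphragm: *Eno3* -0.26 to 0.024, *Gpi1* -0.039 to 0.12, *Ldha* -0.15 to 0.092, *Pfkm* -0.27 to 0.039, *Pkm* -0.15 to 0.088, *Tpi1* -0.099 to 0.10. Heart: *Gapdh* -0.11 to 0.20. Liver: *Gapdh* -0.059 to 0.35, *Pgam2* -0.83 to 1.63, *Pgk1* -0.047 to 0.10, *Pkm* -0.29 to 0.070. *Gpi1*, diaphragm minus heart: -0.13 to 0.024 (effects) and -0.11 to 0.0020 (WT level). Differences in isozyme share, in percentage points, ran in the diaphragm from -0.142 to 0.144 (enolase), -1.63 to 3.92 (lactate dehydrogenase), -0.126 to 0.464 (phosphofructokinase) and -0.0231 to 0.0264 (phosphoglycerate mutase), in the heart from -0.545 to 1.30 (lactate dehydrogenase) and -0.00989 to 0.0325 (phosphoglycerate mutase), and in the liver from -5.33 to 14.5 (phosphoglycerate mutase) and -0.357 to 0.00214 (pyruvate kinase).

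The precision is limited by 3 or 4 libraries a group.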
